A study of Bos taurus with 21 samples.

Results

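The transcriptome of milk somatic cells was compared between Holstein cows in early and in late lactation. The cows were assigned by the day of lactation given in their sample labels, with at most 110 days for early and at least 220 days for late lactation. This gave 17 of the 21 cows of the study. The 8 early cows were sampled at day 41 to 108 (median 72), and 4 of them belonged to the high yielding group (HY) and 4 to the low yielding group (LY). The 9 late cows were sampled at day 220 to 270 (median 243), with 3 HY and 6 LY cows. The remaining 4 cows, sampled at day 167 to 200, stood between the groups and entered no test. All cows were in parity 2 to 4, and no treatment is given for any of them. HY and LY were defined in the study from a national index of production, and the breeding value of milk yield had a median of 29.0 in the early and 27.5 in the late cows. Within the yielding groups, this value tended to be higher in the late cows. In LY cows it was -404 to -123 in early and -182 to 86.9 in late lactation. In HY cows it was 181 to 304 and 269 to 468, so that period and breeding value cannot be fully told apart within the yielding groups. Each cow gave 1 library and different cows made up the 2 groups, so that no cow was followed through a lactation, and the earliest sample was taken at day 41. The source was cells recovered from fresh milk, not gland tissue.

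Milk somatic cells are a mixture of secretory epithelial cells that are shed into milk and of leukocytes, mainly macrophages, neutrophils and lymphocytes, that pass from blood through the gland. Epithelial cells carry the RNA of caseins and whey proteins, which can fill a large part of the reads of a milk cell library. After the peak of lactation, the number and the activity of the secretory cells decline step by step until the gland is dried off, while the share of leukocytes and the somatic cell count of milk tend to rise. In a mixture of this kind, fewer cells of a type and less RNA per cell cannot be told apart.

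The reads counted on genes ranged from 8585010 to 28541904 in the early and from 10350354 to 22542235 in the late cows. The 2 groups did not detectably differ in this depth (exact permutation test over 24310 arrangements, two-sided p = 0.674). More genes had at least 1 count in the late cows, 10897 ± 260 (SD, 9 cows) against 10182 ± 718 (SD, 8 cows), with an exact permutation p of 0.0121 that was 0.0726 after adjustment over 6 library properties. The share of reads that fell outside annotated genes was 35.8% ± 4.20 in the late and 29.3% ± 6.95 in the early cows (exact permutation p = 0.0295, adjusted p = 0.0885). Both differences were as large within the 13 cows of lower mapping rate, with an exact permutation p of 0.0157 for genes detected and of 0.0291 for the share outside genes. Early replicates 5 and 6, both HY cows, stood apart, since the caseins, whey proteins and the mucin-like GLYCAM1 took 60.5% and 56.4% of their counts. Their TMM factors, which rescale a library for its composition, were 0.449 and 0.481, against 0.729 to 1.51 in the other 15 cows.

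The defining markers of the labelled cell source were present. The leukocyte antigen PTPRC (CD45) had 84.9, 318 and 567 CPM (counts scaled to 1000000 per library after correction with the TMM factor) as the lowest, median and highest value of the early cows, and 441, 669 and 1264 CPM in the late cows. The macrophage antigen CD68 had 802 to 3345 CPM in the early and 890 to 2375 CPM in the late cows, and the neutrophil chemokine receptor CXCR2 had 257 to 1156 and 124 to 3243 CPM. The summed level of the red cell genes did not exceed 1.41 CPM in any early or late cow.

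After adjustment for the yielding group, edgeR tested 9493 genes and called 0 of them at an adjusted p under 0.05 (0%), the lowest adjusted p being 0.0837. DESeq2 and limma voom with quality weights, run as alternatives on the same genes, called 802 and 862. At an adjusted p under 0.1, edgeR gave 318 genes (3.35% of the genes tested), 130 of higher level in late and 188 of higher level in early lactation. This number depended on the cows. When each of the 17 cows was left out in turn, it ranged from 0, in 10 of the 17 fits, to 1088 without early replicate 1, where 237 genes also had an adjusted p under 0.05. It was also 0 with parity, the mapping rate set, the share of reads outside annotated genes or the summed T cell level as a further covariate, within the 13 cows of lower mapping rate, and without early replicates 5 and 6. Before adjustment, 2029 genes (21.4%) had p under 0.05. Of these, 1069 (11.3% of the genes tested) were of higher level in late and 960 (10.1%) in early lactation. With single cows left out, the former number ranged from 673 without late replicate 2 to 1343 without early replicate 1. The latter ranged from 603 without early replicate 2 to 1266 without late replicate 9. The normalised levels of the early and late cows did not overlap in 21 genes (0.221%). The median log2 fold change over all genes was 0.08. Since no gene passed the adjusted threshold of 0.05, the groups of genes are described by the number of members with p under 0.05 before adjustment, beside these background shares, and by their median log2 fold change of late over early lactation.

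**Figure D1:**
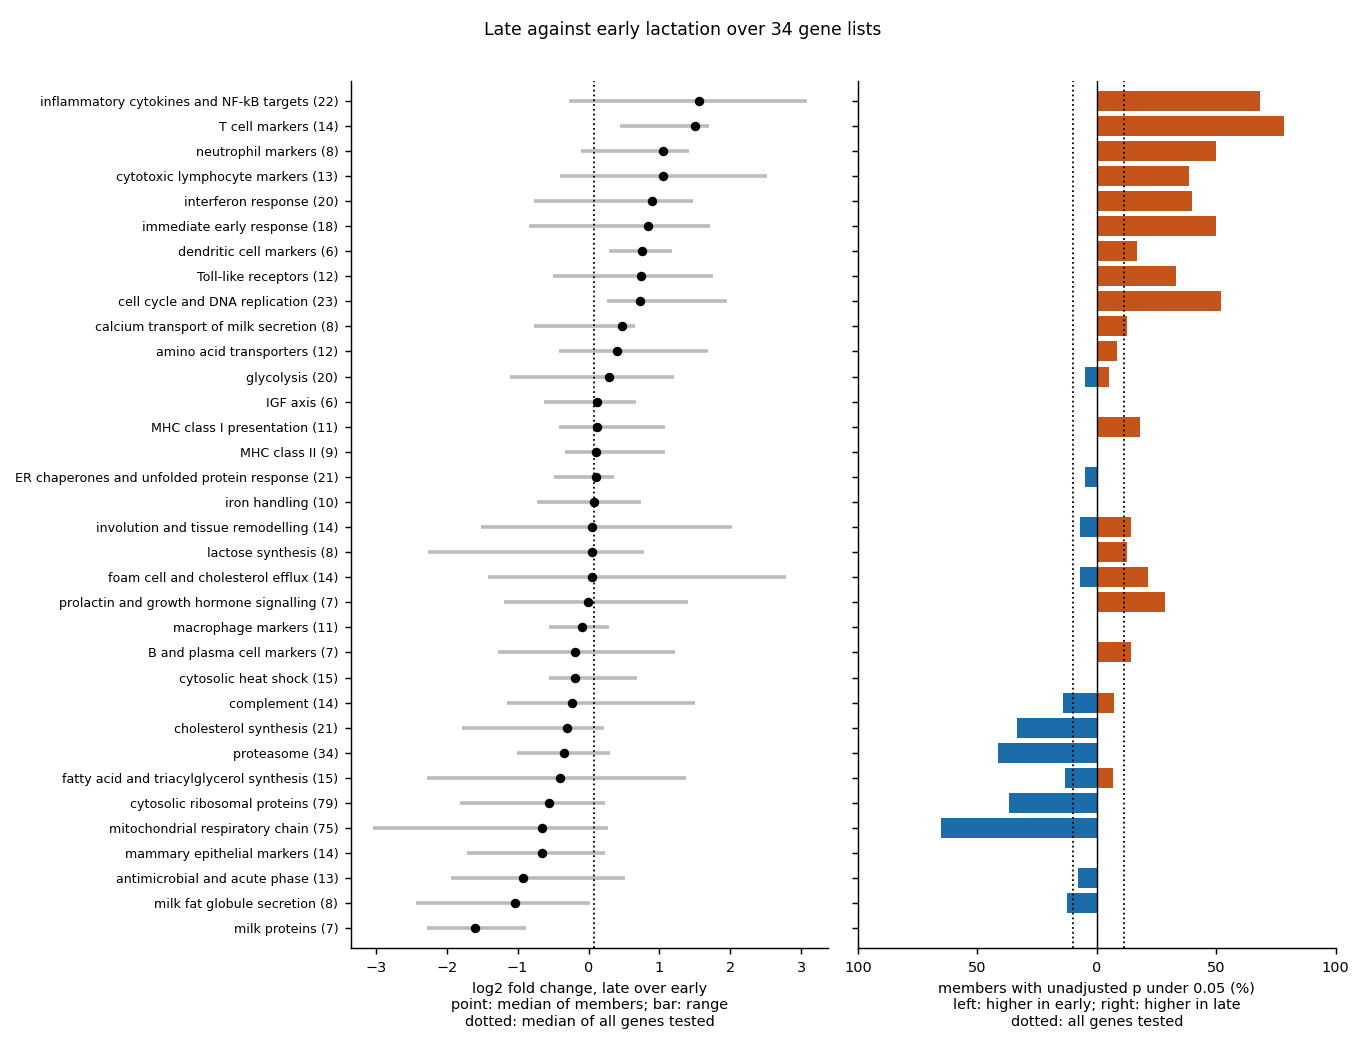
Late against early lactation over 34 gene lists, with the number of members tested in parentheses. Left, the log2 fold change of late over early lactation, as the median (point) and the range (bar) of the members, with the median of all genes (0.08) as a dotted line. Right, the percentage of members with p under 0.05 before adjustment, higher in late lactation to the right and higher in early lactation to the left, with the shares of all genes (11.3% and 10.1%) as dotted lines. The inflammatory, T cell, neutrophil and cytotoxic lists stood at the upper end, and the milk protein list, which had no member under 0.05, at the lower end.

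The genes of the mitochondrial respiratory chain were mostly of higher level in early lactation. The chain passes electrons from nutrients to oxygen through complexes I to IV, and complex V, the ATP synthase, uses the resulting proton gradient to form ATP. Of 75 nuclear genes of the chain that were tested, 49 had p under 0.05 with a higher level in early lactation and 0 with a higher level in late lactation, and 72 had a negative log2 fold change. Their median log2 fold change was -0.65. Genes encoded by the mitochondrial genome were not analysed here.

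The 5 complexes were all represented. In complex I, the NADH dehydrogenase, 25 of 36 genes had p under 0.05 with a higher level in early lactation, with a median log2 fold change of -0.70. In the ATP synthase the number was 11 of 16 (median -0.57), in complex III, which reduces cytochrome c, 6 of 9 (median -0.63), and in cytochrome c oxidase 5 of 10 (median -0.53). Succinate dehydrogenase, which also belongs to the citric acid cycle, had 2 of 4 (median -0.42). The summed level of the 79 respiratory chain genes in the tables was 6584, 8481 and 14407 CPM as lowest, median and highest value of the early cows and 4341, 5375 and 8202 CPM in the late cows, so that the ranges overlapped while the late median lay below every early cow.

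Of the 24 genes with the lowest p in either direction, 3 were small accessory subunits of complex I. NDUFB1 had 50.3, 63.1 and 116 CPM in the early cows and 20.3, 32.7 and 45.1 CPM in the late cows. Each late cow lay below each early cow, and the log2 fold change was -1.005 ± 0.203 (SE, adjusted p = 0.0837). NDUFC1, at 27.1 to 59.4 CPM in the early and 13.8 to 25.0 CPM in the late cows, also showed no overlap, with a log2 fold change of -1.06 ± 0.21. The same held for NDUFB6, with 41.6 to 126 CPM in the early and 20.2 to 40.7 CPM in the late cows and a log2 fold change of -1.11 ± 0.23. ATP5J, a stalk subunit of the ATP synthase, had a median of 258 CPM in the early and 106 CPM in the late cows. Here the groups overlapped, since 7 early cows lay above every late cow and 1 did not.

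Further genes outside the lists were among those of lowest p with a higher level in early lactation. HADH, a mitochondrial enzyme of fatty acid oxidation, had a median of 102 CPM in early against 52.7 CPM in late lactation (log2 fold change -0.88 ± 0.19). ATOX1, which carries copper to the pumps of the secretory route, had 401 against 166 CPM (-1.51 ± 0.32). SEC11C, a subunit of the signal peptidase that trims secretory proteins, had 50.4 to 179 CPM in the early and 27.7 to 47.8 CPM in the late cows and did not overlap. CNPY2, a protein of the endoplasmic reticulum, and CHMP4A, a subunit of the ESCRT-III complex of membrane scission, had log2 fold changes of -1.12 ± 0.25 and -0.97 ± 0.20. The levels of EME1, an endonuclease subunit of DNA repair, were 12.5 to 79.0 CPM in the early and 10.6 to 15.7 CPM in the late cows, a single early cow lying within the late range. MYEOV2 and CDKN2AIPNL completed the 12 genes, at -1.13 ± 0.23 and -1.06 ± 0.23.

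**Figure D2:**
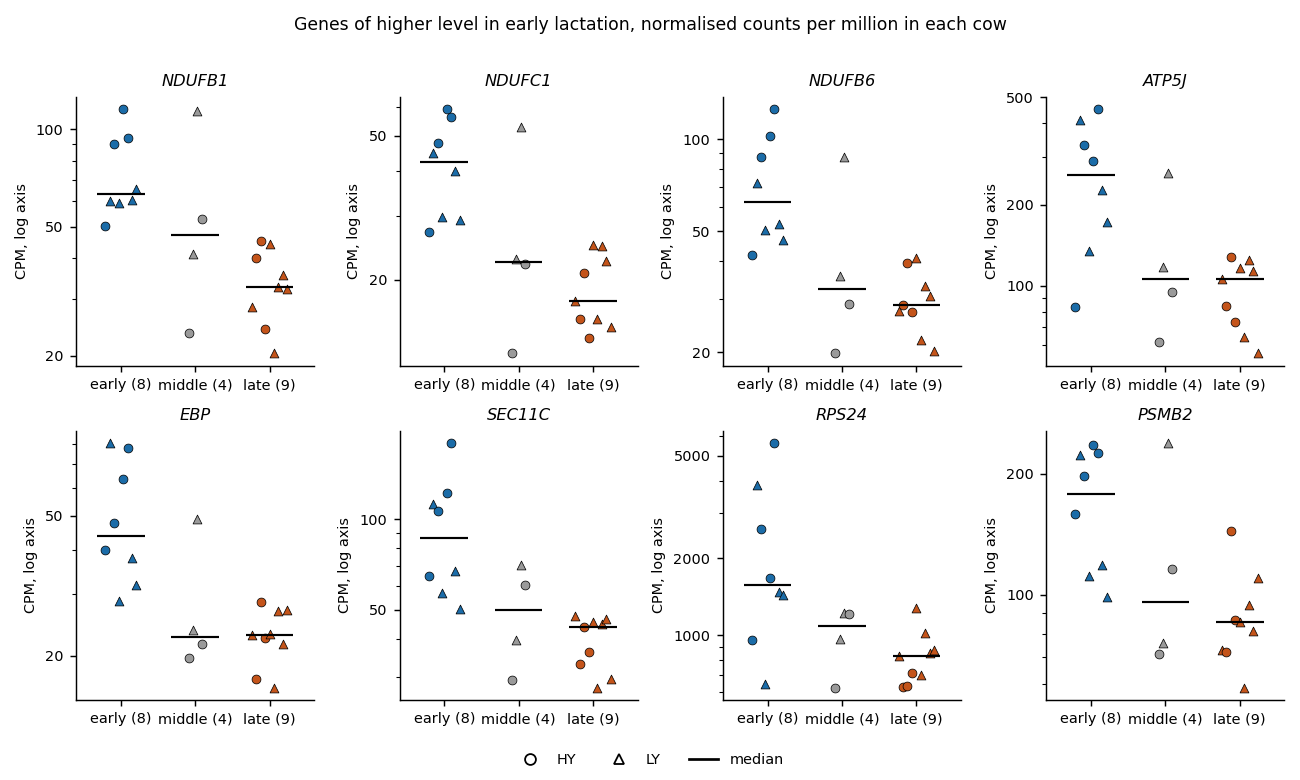
Normalised CPM, on a log axis, of 8 genes in the 8 early, 4 middle and 9 late cows. Each point is 1 cow, circles are HY and triangles LY cows, and the line is the median of the group. In NDUFB1, NDUFC1, NDUFB6, EBP and SEC11C each late cow lay below each early cow, while ATP5J, RPS24 and PSMB2 overlapped.

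Cytosolic ribosomal proteins, the protein part of the ribosome, were of higher level in early lactation with p under 0.05 for 29 of 79 genes, and for 0 genes in late lactation. A negative log2 fold change was found for 78 of them, and the median was -0.56. The large subunit had 18 of 47 and the small subunit 11 of 32 such genes. RPS24 had 646.5, 1570 and 5618 CPM in the early and 628.5, 827 and 1277 CPM in the late cows, with a log2 fold change of -1.36 ± 0.38. In this gene 6 early cows lay above every late cow. RPL35A had a log2 fold change of -1.41 ± 0.39, but its lowest early value of 107.5 CPM, in early replicate 4, was below every late cow. Ribosomal protein genes have many processed pseudogenes, and reads that aligned to several places were not counted, so that the single levels are uncertain. The count depended on single cows. It was 15 without early replicate 2 and 56 without late replicate 9, whose summed ribosomal level of 85647 CPM was the highest of the late cows. Over all genes, the number of higher level in early lactation was 603 and 1266 in these fits, against 960 with all 17 cows.

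The proteasome, which degrades proteins marked with ubiquitin, had 14 of 34 genes with p under 0.05 and a higher level in early lactation and 0 in late lactation, with a median log2 fold change of -0.35. The catalytic core accounted for 10 of its 14 genes (median -0.61), and the regulatory particle that unfolds the substrates for 4 of its 20 genes (median -0.28). PSMB5, the chymotrypsin-like catalytic subunit, had 59.3, 113 and 259 CPM in the early and 39.8, 57.1 and 96.9 CPM in the late cows. PSMB2 and PSMB7 had log2 fold changes of -0.79 ± 0.21 and -0.70 ± 0.20, and 7 of the 9 late cows lay below every early cow in both. Without early replicate 2, the number was 9 genes, while that over all genes of higher level in early lactation fell from 960 to 603.

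These 3 groups moved with other properties of the libraries. When the share of reads outside annotated genes entered the model as a further covariate, 31 respiratory chain, 18 ribosomal and 11 proteasome genes had p under 0.05 with a higher level in early lactation, while 903 genes had p under 0.05 in either direction. With the summed level of the T cell markers as the covariate, the numbers were 21, 14 and 3, with 697 over all genes. Without early replicates 5 and 6 they were 37, 16 and 13, with 1224 over all genes. With the share of counts on milk protein genes as the covariate they were 48, 15 and 16, with 2152 over all genes. Over all genes, those of higher level in early lactation numbered 491, 317, 608 and 971 in these fits, in the order given. The main fit had 960. The part of these properties in the differences was not tested.

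Among the genes of cholesterol synthesis, 7 of 21 had p under 0.05 with a higher level in early lactation and 0 with a higher level in late lactation, and the median log2 fold change was -0.30. EBP, the sterol isomerase of the late pathway, had 28.6 to 80.4 CPM in the early and 16.2 to 28.3 CPM in the late cows, without overlap (log2 fold change -1.05 ± 0.23). PMVK, the phosphomevalonate kinase, had a median of 22.2 against 10.8 CPM, and INSIG1, which holds back the sterol sensing machinery and is itself induced by it, 279 against 117 CPM. HSD17B7, a ketosteroid reductase of the pathway, ranged from 15.1 to 702 CPM in the early and from 13.4 to 89.8 CPM in the late cows, and a log2 fold change of -1.79 ± 0.67. The number of genes was 4 without late replicate 3 or late replicate 4, and 4 without early replicates 5 and 6 together. Over all genes of higher level in early lactation it was 871, 709 and 608 in these fits, in the order given, against 960.

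Milk proteins varied widely between cows. The 7 genes of the list (4 caseins, alpha-lactalbumin, the beta-lactoglobulin gene PAEP and GLYCAM1) took 0.201% to 60.5% of the counts in the early cows, with a median of 33.96%, and 0.259% to 34.3% in the late cows, with a median of 11.6%. The ranges overlapped, and early replicate 1 at day 41 had the lowest share of all 17 cows. All 7 genes had a negative log2 fold change, from -2.28 for GLYCAM1 to -0.89 for CSN2, but p was under 0.05 in 0 of them. LALBA, alpha-lactalbumin, the regulatory subunit of lactose synthase, had 90.3, 26480 and 104014 CPM in the early and 82.3, 4045 and 15296 CPM in the late cows (log2 fold change -2.27 ± 1.30, adjusted p = 0.315). For the beta-casein gene CSN2 the value was -0.89 ± 1.22 (adjusted p = 0.69). The kappa-casein gene CSN3, which stabilises the casein micelle, had -1.60 ± 1.21 (adjusted p = 0.443).

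The genes of milk fat followed with similar uncertainty. MUC1, a mucin of the milk fat globule membrane, had 1.15, 164 and 869 CPM in the early and 5.13, 29.6 and 108 CPM in the late cows, and was the only member of 8 globule genes with p under 0.05 (log2 fold change -2.43 ± 1.09, adjusted p = 0.208). FABP3, the fatty acid binding protein of lactating epithelium, had a median of 6182 against 950 CPM (-2.28 ± 1.03, adjusted p = 0.209), and ACSS2, which activates acetate for fatty acid synthesis, 332 against 120 CPM (-1.35 ± 0.63, adjusted p = 0.226). DGAT2, an enzyme of the last step of triacylglycerol synthesis, had the opposite sign, with 84.2 CPM in early and 130 CPM in late lactation (1.38 ± 0.54, adjusted p = 0.162), and without late replicate 2 it was at 0.91. The other genes of fatty acid and triacylglycerol synthesis, 12 of the 15 tested, had p above 0.05. Of 8 genes of lactose synthesis, 1 was under 0.05. B4GALT1, the galactosyltransferase that LALBA turns into lactose synthase, was of higher level in late lactation, with 24.3, 79.8 and 117 CPM in the early and 82.4, 103 and 205 CPM in the late cows (0.78 ± 0.27, adjusted p = 0.128). This transferase also serves glycoprotein synthesis in other cells.

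The 14 epithelial markers had a median log2 fold change of -0.66, and p was under 0.05 in 0 of them. Their summed level ranged from 41.1 to 2811 CPM in the early cows, with a median of 1000.0, and from 102 to 1862 CPM in the late cows, with a median of 284. KRT19, the keratin of luminal cells, had a log2 fold change of -1.71 ± 0.97 (adjusted p = 0.309) and KRT18 of -0.31 ± 0.66 (adjusted p = 0.805). Of 7 genes of prolactin and growth hormone signalling, 2 were under 0.05. The signal transducers STAT5A and STAT5B were of higher level in late lactation, by 0.55 ± 0.26 and 0.97 ± 0.36 on the log2 scale (adjusted p = 0.233 and 0.141), while the prolactin receptor PRLR had -0.78 (adjusted p = 0.639). In the 14 genes of involution and tissue remodelling, PLAU, the urokinase that activates plasminogen, and SOCS3, an inhibitor of STAT3 signalling, had p under 0.05 before adjustment with a higher level in late lactation (adjusted p = 0.134 and 0.174), and TIMP2, an inhibitor of metalloproteinases, in early lactation (adjusted p = 0.116). The remaining 11 had p above 0.05. Without late replicate 2, STAT5A was at 0.29 and PLAU at 0.91, without late replicate 9 SOCS3 was at 1.02, and without early replicate 2 TIMP2 was at -0.66 on the log2 scale. Of the STAT5 genes, 0 had p under 0.05 within the 13 cows of lower mapping rate or with the summed T cell level as covariate. Of the 6 genes of the IGF axis that were tested, 0 had p under 0.05, and IGF2R was closest with 0.67 ± 0.33 (adjusted p = 0.246).

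**Figure D3:**
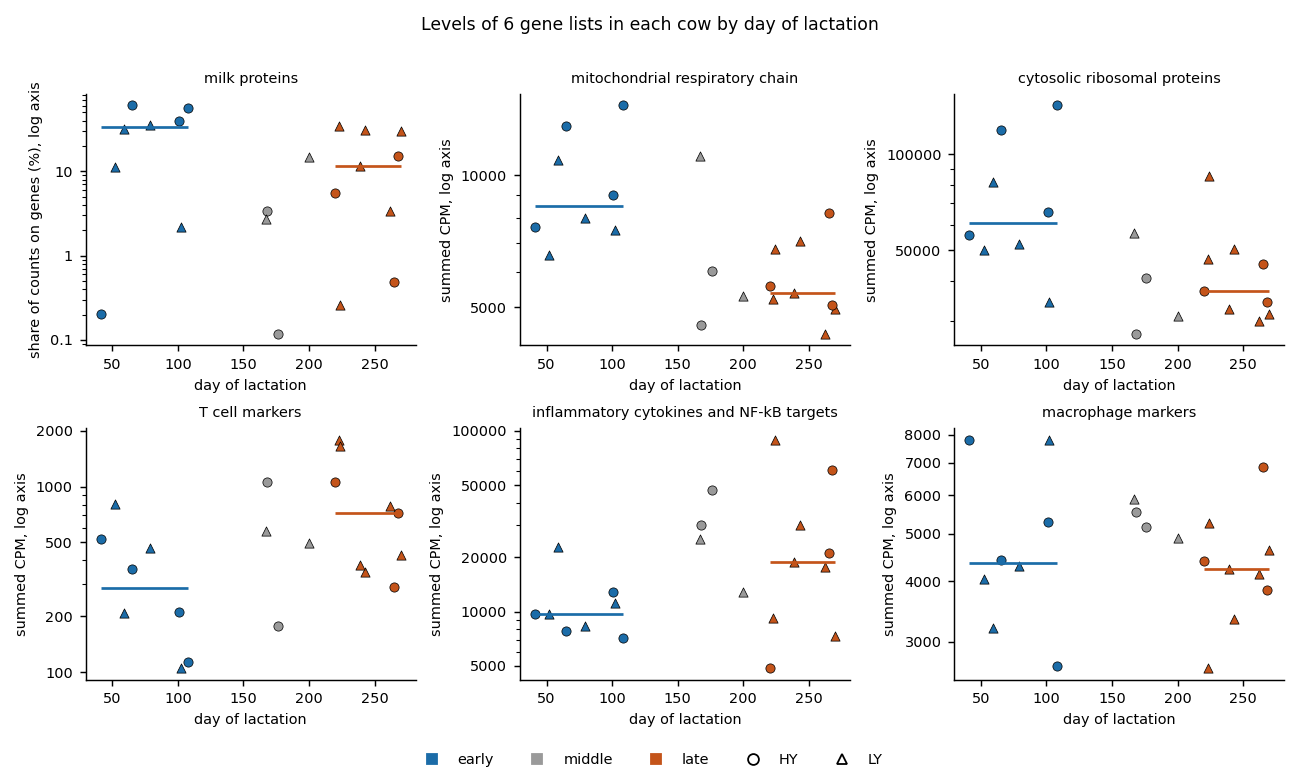
Levels of 6 gene lists in each of the 21 cows by day of lactation. The milk proteins are given as the percentage of counts on genes and the other lists as summed CPM, on log axes. Blue, grey and orange are early, middle and late cows, circles are HY and triangles LY cows, and the lines are the medians of the early and the late cows (33.96% and 11.6% for the milk proteins, 8481 and 5375 CPM for the respiratory chain).

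Inflammatory cytokines and targets of NF-kB mostly had a higher level in late lactation. These genes are switched on within leukocytes and epithelium by microbial products and by cytokines. Of 22 genes tested, 15 had p under 0.05 with a higher level in late lactation and 0 in early lactation, 5 of them with an adjusted p under 0.1, and the median log2 fold change was 1.56. IL1A, the gene of interleukin 1 alpha, had 14.6, 27.9 and 61.6 CPM in the early cows and 33.1, 143 and 1416 CPM in the late cows (log2 fold change 3.08 ± 0.65, adjusted p = 0.0837). Each late cow lay above the early median, late replicate 9 being the highest and late replicate 2 with 310 CPM the next. TNFAIP3, the A20 protein that limits NF-kB signalling, had 4.62 to 93.1 CPM in the early and 59.0 to 774 CPM in the late cows, 7 of the 9 late cows lying above every early cow.

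Regulators as well as effectors of the response were in the count. IL10, the anti-inflammatory cytokine, had a log2 fold change of 1.62 ± 0.39, NFKBIZ, an inducible NF-kB cofactor, of 1.53 ± 0.40, and the interleukin 1 antagonist IL1RN of 1.77. Like IL1RN, the chemokines of the list were picked after their values were seen. Of those that attract neutrophils, IL8 had 2.64, CXCL2 2.02 and CXCL3 1.64 (adjusted p = 0.0912, 0.130 and 0.128). The other 7 genes had p above 0.05. CCL2 and CCL5 had a negative sign, with log2 fold changes of -0.03 and -0.28 (adjusted p = 0.971 and 0.801). The summed level of the list was 7179 to 22689 CPM in the early and 4867 to 89331 CPM in the late cows. It was highest in late replicate 9, and the number of genes under 0.05 was 9 without that cow and 5 without late replicate 2. Over all genes, the number of higher level in late lactation was 1098 and 673 in these fits, against 1069.

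Several of the 12 genes of lowest p with a higher level in late lactation act in leukocytes. NLRP12, an inhibitory sensor of myeloid cells, had 0.407, 2.08 and 4.11 CPM in the early and 1.78, 14.8 and 45.7 CPM in the late cows (log2 fold change 2.72 ± 0.57). CD80, a costimulatory ligand for T cells, had 1.57 to 19.2 CPM in the early and 19.1 to 45.0 CPM in the late cows (1.87 ± 0.39). SLAMF6, an adhesion receptor of lymphocytes, and FAM65B, a regulator of RhoA in neutrophils and T cells, had 1.39 ± 0.29 and 2.16 ± 0.47. MXD1, a partner of MAX that opposes MYC, had a median of 120 CPM in early and 405 CPM in late lactation (2.13 ± 0.44). In MXD1 a single late cow, late replicate 4 with 85.8 CPM, lay within the early range.

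The other genes of this set regulate chromatin and signalling. ATF7IP, a cofactor of histone methylation, had the lowest p of all genes, with 18.1, 33.8 and 49.1 CPM in the early and 50.4, 67.6 and 117 CPM in the late cows (1.08 ± 0.21, adjusted p = 0.0837). The groups did not overlap in this gene. They did not overlap in GNAT2 either, a transducin subunit best known from cones, at low levels of 0.261 to 5.001 CPM in the early and 6.93 to 29.1 CPM in the late cows. CHD1, a chromatin remodeller, PXK, a sorting protein with a kinase-like domain, SKIL, a repressor of TGF-beta signalling, and NDFIP2, an adaptor of ubiquitin ligases, had log2 fold changes of 1.33, 1.40, 1.49 and 1.11, and 5 to 8 of the 9 late cows lay above every early cow.

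**Figure D4:**
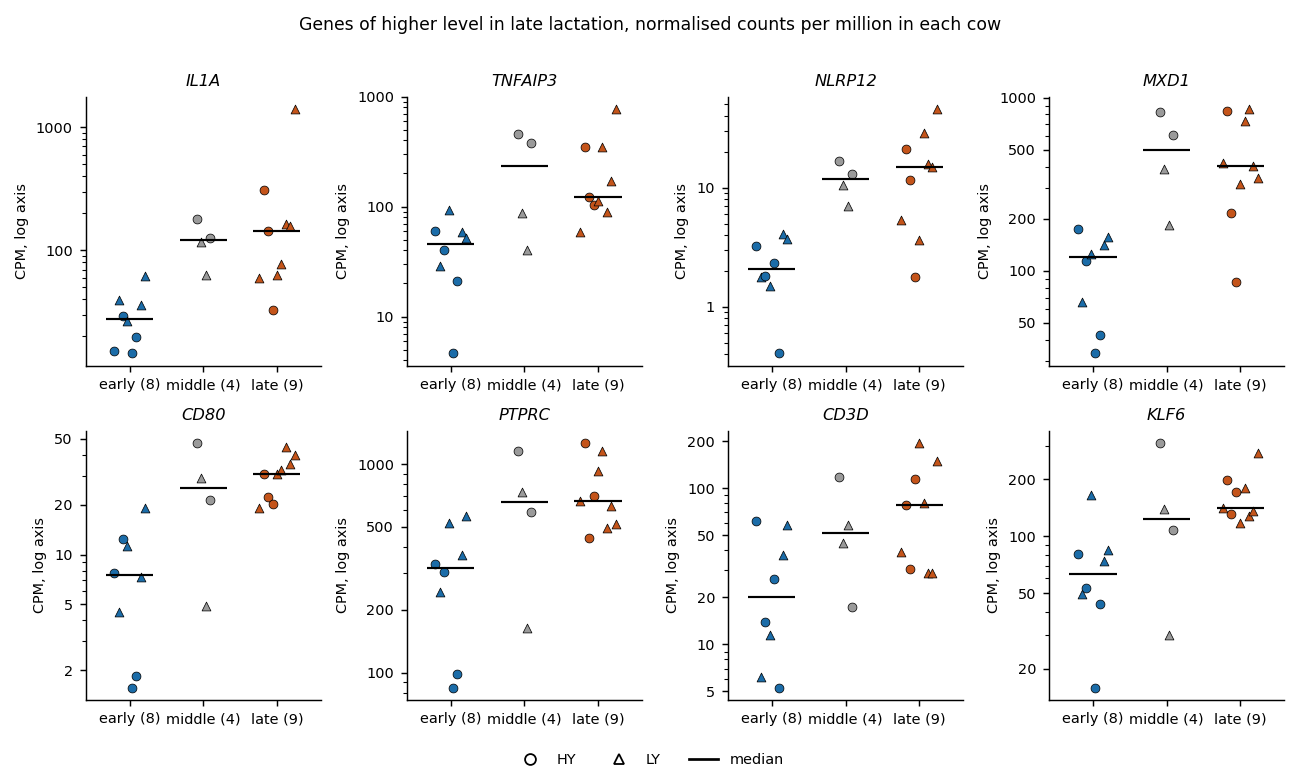
Normalised CPM, on a log axis, of 8 genes in the 8 early, 4 middle and 9 late cows, drawn as for the genes of higher level in early lactation. In IL1A, the late cows ranged from 33.1 to 1416 CPM against 14.6 to 61.6 CPM in the early cows, and in PTPRC and CD3D 6 and 5 of the 9 late cows lay above every early cow.

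T cell markers had the largest share of members with p under 0.05 among the 34 lists. With a higher level in late lactation, 11 of 14 genes had p under 0.05 (median log2 fold change 1.51), and all 14 had a positive sign. CD3D, a chain of the T cell receptor complex, had 5.29, 20.1 and 61.2 CPM in the early and 28.6, 78.1 and 195 CPM in the late cows (1.62 ± 0.56, adjusted p = 0.128). CD3G, CD4, the coreceptor of helper cells, and the kinase LCK had 1.58 ± 0.54, 1.61 ± 0.60 and 1.52 ± 0.58. The coreceptor CD8A of cytotoxic cells had 1.49 (adjusted p = 0.162), so that markers of both T cell subsets were in the count. The number was 6 without late replicate 4, 6 without late replicate 5 and 7 without late replicate 9, the 3 late cows of highest summed T cell level. Over all genes of higher level in late lactation it was 879, 838 and 1098 in these fits, against 1069.

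PTPRC, which all leukocytes carry, had a log2 fold change of 1.34 ± 0.37 (adjusted p = 0.0912), and each late cow lay above the early median. Of the cytotoxic lymphocyte markers, 5 of 13 had p under 0.05 with a higher level in late lactation (median 1.05). Their summed level was not higher in late lactation, with a median of 277 CPM in the early and 260 CPM in the late cows. EOMES, a transcription factor of effector and memory cells, had 0.00 to 4.76 CPM in the early cows, of which 3 had no read, and 1.39 to 11.4 CPM in the late cows. The number was 8 without early replicate 1 and 3 without late replicate 2, late replicate 6, late replicate 9 or early replicate 4. Over all genes of higher level in late lactation it was 1343, 673, 867, 1098 and 1117 in these fits, in the order given, against 1069. NKG7, a granule membrane protein of natural killer and cytotoxic T cells, did not share the sign, with a median of 131 CPM in the early and 87.9 CPM in the late cows (-0.40 ± 0.33, adjusted p = 0.492). For B cell markers, 1 of 7 genes had p under 0.05, the complement receptor CR2 with 1.22 ± 0.48, while the B cell receptor component CD79A had 0.03 ± 0.81 (adjusted p = 0.985).

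Among phagocytes, the neutrophil and the macrophage markers differed in their counts. Of 8 neutrophil markers, 4 had p under 0.05 with a higher level in late lactation (median 1.06), among them MMP9, CXCR2 and FCAR. FCAR, the receptor for the Fc part of immunoglobulin A, had 10.2, 38.8 and 105 CPM in the early and 18.9, 75.5 and 298 CPM in the late cows (1.42 ± 0.58), and 3 of the 9 late cows lay above every early cow. CXCR2 had 1.32 ± 0.52, and late replicate 2 with 3243 CPM was the highest cow. Without late replicate 2, the number was 0, and the log2 fold changes of MMP9, CXCR2 and FCAR were 0.67, 0.60 and 0.92. That fit had 673 genes of higher level in late lactation over all genes, against 1069 in the main fit. Other members, chosen after their values were seen, did not follow, with log2 fold changes of -0.11 for S100A12, 0.30 for S100A8 and 0.23 for ITGAM. The summed level of the neutrophil markers had a median of 4899 CPM in the early and 4769 CPM in the late cows. Of 11 macrophage markers, 0 had p under 0.05, and their median was -0.10. CD14 had 0.29 ± 0.45 (adjusted p = 0.731) and CD68 0.02 ± 0.30 (adjusted p = 0.981). The summed level of the macrophage markers was 2676 to 7815 CPM in the early and 2648 to 6854 CPM in the late cows.

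Immediate early genes respond to stimulation of a cell within minutes. Of 18 genes, 9 had p under 0.05 with a higher level in late lactation and 0 in early lactation (median 0.83), among them KLF6 with 15.9, 63.3 and 165 CPM in the early and 117, 140 and 275 CPM in the late cows (1.27 ± 0.33, adjusted p = 0.0907). EGR1, DUSP1 and FOSL2 had 1.33 ± 0.38, 1.53 ± 0.46 and 1.496 ± 0.481, and FOS had 0.82 ± 0.31. The genes of the cytosolic heat shock response, which mark another kind of stress, had p under 0.05 in 0 of 15 cases, with a median of -0.19. The number of immediate early genes was 4 without late replicate 2, where that over all genes of higher level in late lactation was 673 against 1069.

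Interferon response genes had 8 of 20 members with p under 0.05 and a higher level in late lactation (median 0.89). OAS2, a sensor of double-stranded RNA, had a log2 fold change of 1.47 ± 0.48, USP18, which removes ISG15 from proteins, of 1.10 ± 0.37, and IFIT3, an antiviral effector, of 1.37 ± 0.47. In each of the 3 genes the groups overlapped, and 4 to 6 of the 9 late cows lay above every early cow. Without late replicate 2, IFIT3 was at 0.89. ISG15 itself had 0.07 (adjusted p = 0.946). The number was between 4 and 5 without late replicate 2, late replicate 6, early replicate 5 or early replicate 6. Over all genes of higher level in late lactation it was 673, 867, 702 and 731 in these fits, in the order given, against 1069.

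Toll-like receptors, which sense microbial molecules, had 4 of 12 genes under 0.05 with a higher level in late lactation (median 0.74). TLR3 had 1.83, 12.5 and 21.9 CPM in the early and 14.8, 19.9 and 63.5 CPM in the late cows (1.19 ± 0.39), and TLR4, the receptor of lipopolysaccharide, 185, 333 and 546 against 228, 551 and 1290 CPM (0.82 ± 0.36, and 0.51 without late replicate 2). The number was 2 when late replicate 2, late replicate 9 or early replicate 5, 6 or 7 was left out. Over all genes, those of higher level in late lactation numbered 673, 1098, 702, 731 and 867 in these fits, in the order given, against 1069. Antimicrobial and acute phase proteins, many of them products of the epithelium, did not follow this direction. Of 13 genes, 12 had a negative sign (median -0.92), and SAA3, an acute phase apolipoprotein, was the only member under 0.05, with 37.1 against 18.2 CPM (-1.44 ± 0.57, adjusted p = 0.162). The lactoferrin gene LTF had -1.39 (adjusted p = 0.343).

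Genes of the cell cycle and of DNA replication had a positive sign in all 23 cases, and 12 had p under 0.05 (median 0.72). RRM2, the small subunit of ribonucleotide reductase, had 24.4, 35.4 and 53.5 CPM in the early and 23.1, 45.8 and 224 CPM in the late cows, the highest value being that of late replicate 4. CCNB1, the mitotic cyclin B1, the spindle checkpoint kinase BUB1 and the mitotic kinase PLK1 had 1.57 ± 0.60, 1.39 ± 0.54 and 0.87 ± 0.34, and the highest late cow was late replicate 4 in each of them. Without this cow, the number was 0, and the log2 fold changes of RRM2 and BUB1 were 0.49 and 0.76. It was 7 without late replicate 1, 6 without late replicate 6 and 5 without early replicate 6. Without these cows in turn, late replicate 4 first, the number over all genes of higher level in late lactation was 879, 1005, 867 and 731, against 1069.

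The immune lists were counted with the same covariates and cows. With the share of reads outside annotated genes as a covariate, the numbers were 14 for the inflammatory, 9 for the T cell, 7 for the immediate early, 1 for the cell cycle, 0 for the interferon, 0 for the neutrophil, 6 for the cytotoxic and 2 for the Toll-like receptor list. With the summed T cell level as a covariate they were 7 for the inflammatory, 3 for the immediate early, 4 for the interferon, 2 for the neutrophil, 1 for the Toll-like receptor, 0 for the cell cycle and 0 for the cytotoxic list. The T cell list, which made this covariate, had 0. With the share of counts on milk protein genes as a covariate, the inflammatory list had 9, the T cell list 10 and the immediate early list 8. The cell cycle list then had 10, the interferon list 8, the neutrophil and cytotoxic lists 4 each and the Toll-like receptor list 3. Without early replicates 5 and 6, the numbers were 10, 6 and 6 for the inflammatory, T cell and immediate early lists. They were 3, 3 and 0 for the interferon, cell cycle and neutrophil lists, and 4 and 1 for the cytotoxic and Toll-like receptor lists. Within the 13 cows of lower mapping rate, the inflammatory list had 7, the interferon list 2, the neutrophil list 2 and the Toll-like receptor list 2 such genes, and the T cell list 11. The cell cycle list had 9, the immediate early list 6 and the cytotoxic list 4. Over all genes, 1069 were under 0.05 with a higher level in late lactation in the main fit. With the covariates, in the order given, this number was 412, 380 and 1181. It was 616 without early replicates 5 and 6 and 685 within the 13 cows. The part of these properties in the differences was not tested.

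Other gene groups had few members with p under 0.05. Presentation on MHC class II had 0 of 9 genes under 0.05, and its chaperone CD74 had 0.11 ± 0.44 (adjusted p = 0.900). MHC class I presentation had 2 of 11, the peptide transporter TAP2 and the class I gene BOLA-NC1, both higher in late lactation. Chaperones of the endoplasmic reticulum had 1 of 21, the secreted stress factor MANF with -0.48 ± 0.19, while HSPA5, the main chaperone, had 0.33 ± 0.22 (adjusted p = 0.374). Iron handling had 0 of 10, dendritic cell markers 1 of 6 (LAMP3), calcium transport 1 of 8 (ATP2A2, the calcium pump of the endoplasmic reticulum) and amino acid transport 1 of 12 (SLC7A6), these 3 with a higher level in late lactation. In glycolysis, 2 of 20 genes were under 0.05 with opposite signs, the aldolase ALDOC with -1.12 ± 0.27 and the glucose transporter SLC2A3 with 1.21 ± 0.53. Without late replicate 2, SLC2A3 was at 0.66, and without early replicate 8, LAMP3 was at 1.32.

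Genes of cholesterol efflux and of complement were divided. The cholesterol exporter ABCG1 and the scavenger receptor OLR1 were of higher level in late lactation (log2 fold change 2.79 ± 0.74 and 1.22 ± 0.35), while the gene of the liver X receptor NR1H3, which activates ABCG1, was of higher level in early lactation, with 37.3, 70.4 and 197 CPM against 16.97, 19.7 and 73.4 CPM (-1.42 ± 0.36). In all, 3 of 14 genes of the efflux list were under 0.05 with a higher level in late and 1 in early lactation. The former included NR1H2, the gene of another liver X receptor, with a log2 fold change of 0.82. The 2 receptor genes thus had opposite signs. Without early replicate 1, the number of higher level in late lactation was 5. Of the complement genes, CD55, which protects cells from complement, had 1.51 ± 0.38, and the anaphylatoxin receptor C3AR1 and the protease C1R had -1.15 ± 0.36 and -0.84 ± 0.31. Without early replicate 4, C3AR1 was at -0.76. The other 11 of the 14 complement genes had p above 0.05.

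The comparison was repeated within each yielding group, with 4 early against 3 late HY cows and 4 early against 6 late LY cows. No cow is shared between these fits. In HY cows, 1094 genes had p under 0.05 before adjustment and in LY cows 718, and edgeR called 0 at an adjusted p under 0.05 in both. The median log2 fold change of the respiratory chain was -0.84 in HY and -0.56 in LY cows, that of the T cell markers 1.32 and 1.11, and that of the inflammatory list 1.38 and 1.59. NDUFB1 had -1.21 in HY and -0.89 in LY cows, and IL1A 3.10 and 3.04. Both genes were named for their low p in the joint fit of these HY and LY cows. The respiratory chain, T cell and inflammatory lists also stood out in that fit. A shared sign in its parts was thus largely set by this choice and is no independent test. The medians lay further apart for the milk proteins, with -3.38 in HY and -0.47 in LY cows, for milk fat globule secretion, with -2.71 and -0.33, and for the cytosolic ribosomal proteins, with -1.19 and -0.18. They had opposite signs in many lists, among them the B cell markers, with -1.43 and 0.66, and the epithelial markers, with -1.41 and 0.05. Further such lists were the macrophage markers, with 0.28 and -0.40, and the cholesterol efflux genes, with 0.41 and -0.25. Early replicates 5 and 6, with 60.5% and 56.4% of counts on milk protein genes, were 2 of the 4 early HY cows. Their part in these differences was not tested. The interferon list had 8 members with p under 0.05 and a higher level in late lactation in HY and 0 in LY cows, with medians of 1.16 and 0.30. Over all genes, the number in this direction was 407 in HY and 371 in LY cows. The milk protein share of the HY cows had a median of 48.0% (0.201% to 60.5%) in early and of 5.58% (0.488% to 15.1%) in late lactation, and that of the LY cows of 21.7% (2.21% to 35.9%) and 20.7% (0.259% to 34.3%). The difference between the yielding groups was tested as an interaction. edgeR called 0 genes at an adjusted p under 0.05 (0%), the lowest adjusted p being 0.9997, and 151 genes (1.59%) had p under 0.05 before adjustment. DESeq2 gave 0 and 288 in the same test. With single cows left out, the number under 0.05 ranged from 78 without early replicate 6 to 697 without early replicate 1. Of the 115 genes chosen by the naming rule, MMP9 had the lowest interaction p with 0.0168, the log2 fold change being 2.17 in HY and 0.29 in LY cows. The interferon genes OAS2, USP18, IFIT3 and OAS1Z had an interaction p of 0.591, 0.477, 0.352 and 0.183.

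**Figure D5:**
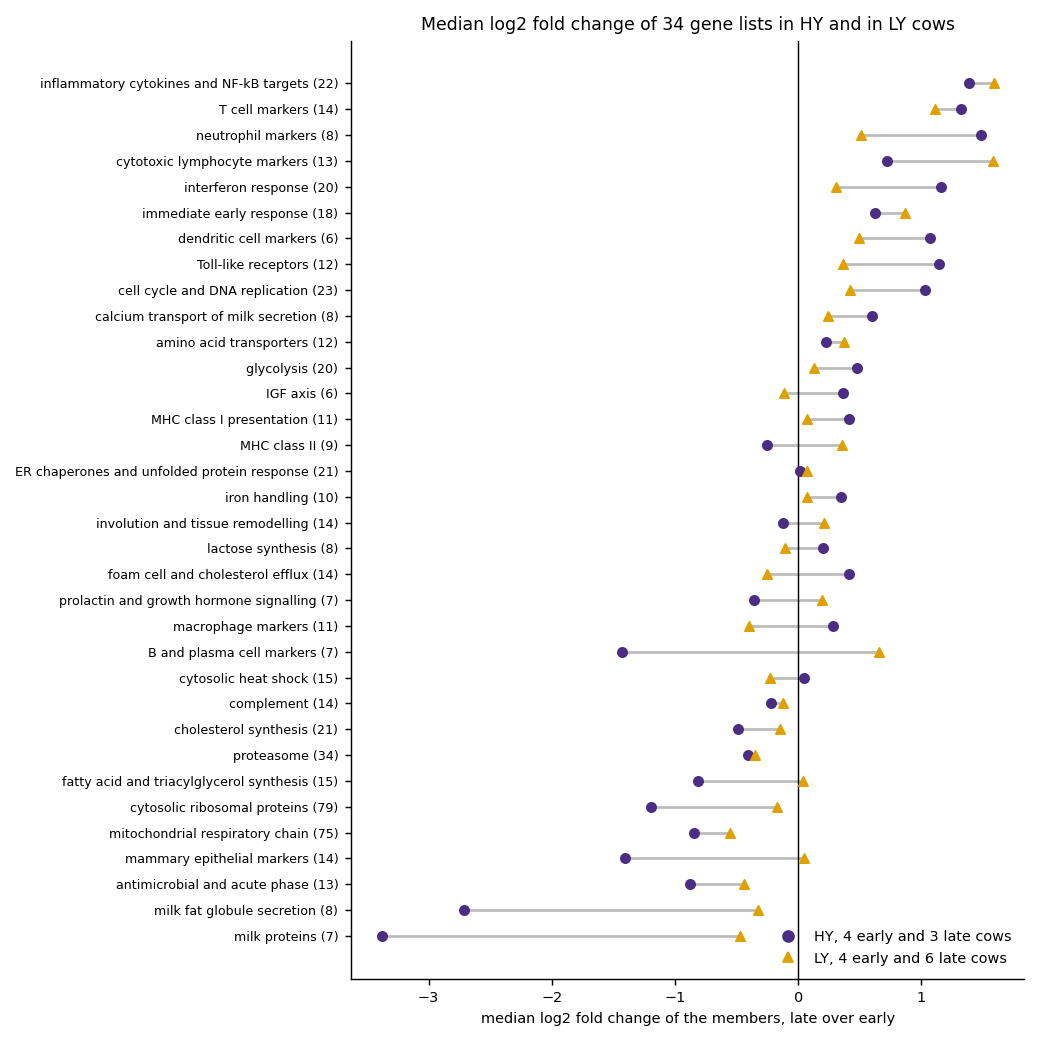
Median log2 fold change of late over early lactation of 34 gene lists, in HY cows (circles, 4 early and 3 late) and in LY cows (triangles, 4 early and 6 late). The respiratory chain (-0.84 and -0.56), the T cell (1.32 and 1.11) and the inflammatory list (1.38 and 1.59) had the same sign in both, while the milk proteins stood at -3.38 in HY and -0.47 in LY cows. The respiratory chain, T cell and inflammatory lists stood out in the joint fit of these cows. Their shared sign is therefore no independent test. Early replicates 5 and 6, the cows of highest milk protein share, were both HY cows.

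The 4 cows sampled at day 167 to 200 were compared with both groups as a description. At the 318 genes with an adjusted p under 0.1, the median of the middle cows lay between the early and the late median for 199 genes, beyond the late median for 116 and beyond the early median for 3. It was nearer to the late than to the early median for 290 of the 318 genes. The same count over all genes tested was not made, so it is not known whether this was particular to these genes. IL1A had a median of 122 CPM in the middle cows against 27.9 in early and 143 in late cows, and NDUFB6 had 32.2 CPM against 62.4 and 28.6 CPM. NDUFB1 stood between the groups, with 47.1 CPM against 63.1 and 32.7 CPM. The summed inflammatory list had a median of 27572 CPM in the middle cows, above 9678 in early and 18832 in late cows. The immediate early list (6094 against 2465 and 3436 CPM) and the neutrophil list (8878 against 4899 and 4769 CPM) also stood above both groups. The T cell list (537 against 285 and 722 CPM) and the respiratory chain (5664 against 8481 and 5375 CPM) lay between them. The milk protein share of the middle cows was 0.118% to 14.7%, with a median of 3.08%, below the medians of both groups.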

How the data were processed

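RNA of milk somatic cells was sequenced with 1 library per cow, and each cow was a replicate. The deposited values were raw read counts per gene, which the authors made by trimming with Trimmomatic, mapping with Bowtie2 within TopHat2 to bosTau7, conversion with SAMtools and counting with HTSeq. Their versions and the strand setting are not given in the sources used here. Reads aligned to several places are set apart in the summary lines of the counts and entered no gene. These lines, and a row without a gene name (0.036% to 0.151% of the counts), were left out, and 23 symbols that a spreadsheet had turned into dates stayed as they were. Of 13570 gene rows, the 9493 with at least 10 counts in at least 8 of 17 cows were tested with the quasi-likelihood F test of edgeR 4.0.16 in R 4.3.3 (TMM factors, period plus yielding group, Benjamini-Hochberg adjustment). All p values of single genes are two-sided values from this fit, before adjustment unless called adjusted, and the SE was derived from the F statistic. Alternatives used limma 3.58.1, DESeq2 1.42.0, other scalings, filters, covariates and subsets. The 13 cows called of lower mapping rate were taken from a table of the study. Library properties were compared with exact permutation tests over cows. The p values measure the spread between different cows, and no 2 libraries agreed within sampling noise.

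The contrast, the 35 gene lists and the covariates added later were chosen with earlier results of these data known. The text names the 12 genes of lowest p in each direction, up to 4 members of lowest p of each list, and defining cell markers. IL1RN, S100A8, S100A9, S100A12, ITGAM, IL8, CXCL2, CXCL3, CCL2, CCL5, CD8A, ISG15, LTF and PRLR fall outside this rule. They were chosen after their values were seen, as was the adjusted threshold of 0.1 as a second description. Some genes that the rule names are not reported here.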

Additional observations from a re-analysis of the deposited data

Results flagged for a closer look

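In 6 of 242 groups of cows, the highest or lowest CPM of a named gene lay far from the next cow of its group by Dixon's test, and chance alone flags about 1 group in 20. In late lactation, GNAT2 was 29.1 in late replicate 6, where the next cow had 11.4 and the median was 8.81. B4GALT1 was 205.1 in late replicate 2 (next 129, median 103), and MMP9 was 201.6 in the same cow (next 84.6, median 56.8). RRM2 was 223.6 in late replicate 4 (next 70.9, median 45.8). In early lactation, EPCAM, an adhesion protein of epithelial cells, was 0.7196 in early replicate 1, the cow of lowest milk protein share, where the next cow had 19.2 and the median was 61.8. TLR3 was 1.832 in early replicate 6, against 7.22 in the next cow and a median of 12.5.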

How the results depend on the processing

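No gene passed an adjusted p of 0.05 in the edgeR fit, whereas 802 did with DESeq2 and 862 with limma voom and quality weights. In edgeR, 226 did without the covariate and 530 with the breeding value of milk yield in place of the yielding group. With single cows left out, the number ranged from 0 to 237, and the genes with p under 0.05 before adjustment from 1451 to 2476. That number of 2029 was 1094 in HY cows alone, 718 in LY cows alone, 903 with the share of reads outside genes, 697 with the T cell level and 1224 without the 2 cows of lowest TMM factor, of which the HY and LY fits and the last hold fewer cows. The cause of the changes with covariates was not tested. List medians that moved by more than 1 pooled SD of the list level between cows were IGF axis 0.53 with 10 counts in each cow, T cell 0.20 and cytotoxic -0.003119 with the T cell level, B cell -1.43 and ribosomal -1.19 in HY cows, and interferon 0.30 in LY cows. No paired analysis was possible because the replicate numbers only name the cows.

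Of 115 named genes, 108 kept their sign in each alternative. Most of the 115 were named for their low p in the main fit, and the alternatives used largely the same cows. A kept sign was thus largely set by this choice and is no independent test. The values of the other genes changed sign as follows, on the log2 scale. CSN2 had 0.26 in LY cows, 0.0201 with the share outside genes and 0.14 with the milk protein share as covariate. KRT18 had 0.14, 0.29 and 0.18 in these fits and 0.46 without the 2 cows of lowest TMM factor, and ranged from -0.76 to 0.0176 with single cows left out. CD14 had -0.24 in the cows of lower mapping rate and -0.0001781 to 0.83 with single cows left out. CD3E had -0.25 with the T cell level as covariate.

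CD68 had -0.0293 with upper-quartile factors, -0.0148 with scaling without milk proteins, -0.0809 with voom, -0.0314 without the filter, -0.0122 without covariate, -0.0928 with the breeding value, -0.0452 in all 21 cows, -0.0486 by day of lactation, -0.14 at lower mapping rate, -0.12 in LY cows, -0.0755 with the milk protein share and -0.15 without the 2 cows (-0.15 to 0.19 with single cows left out). CD79A had -0.0157 with upper-quartile factors, -0.0235 without the filter, -0.16 without covariate and with the breeding value, -0.00147 with parity, -0.23 in all 21 cows, -1.43 in HY cows, -0.34 by day, -0.0706 with the share outside genes, -0.15 with the T cell level and -0.0899 without the 2 cows (-0.33 to 0.70 with single cows left out). CD74 had -0.001045 with the breeding value, -0.0621 with the mapping rate set, -0.24 at lower mapping rate, -0.25 in HY cows, -0.14 by day, -0.22 with the milk protein share and -0.30 with the T cell level (-0.28 to 0.27 with single cows left out). The late minus early share of non-unique alignments was -0.457 percentage points at lower mapping rate. The cause was not tested.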

Other observations

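Some further groups, chosen after the values were seen, were described in the same way. Mitochondrial ribosomal proteins, which translate the transcripts of the mitochondrial genome, had 35 of 73 genes with p under 0.05 and a higher level in early lactation and 0 with a higher level in late lactation. Their median log2 fold change was -0.55, and their summed level had a median of 2695 CPM in the early and 1777 CPM in the late cows. The number was 25 with the share of reads outside genes as covariate, 16 with the T cell level and 25 without early replicates 5 and 6. Their part in the difference was not tested. The enzymes of the citric acid cycle and of pyruvate dehydrogenase had 5 of 16 genes with a higher level in early lactation (median -0.34), and the translation initiation factors had 10 of 47 with a higher level in early and 5 with a higher level in late lactation (median -0.06).

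Among the 21 genes whose groups did not overlap, 15 were of higher level in early lactation. Beside the subunits of complex I named above, they included NDUFB5 of the same complex, the mitochondrial ribosomal proteins MRPS17 and MRPL50, and DERL2, which takes part in the disposal of misfolded proteins from the endoplasmic reticulum. The 6 of higher level in late lactation were ATF7IP, GNAT2, DDX3X, SPRTN, UGCG and RNGTT, of which UGCG forms glucosylceramide and RNGTT caps messenger RNA.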
